A study of Rattus norvegicus with 6 samples.

Results

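The genes described here encode enzymes, membrane proteins and regulators of the lysosome. They were taken as rows of the deposited expression table whose symbol matched 1 of 45 listed lysosomal genes, without using any measured value of the comparison for the match. The list itself was drawn up with earlier results of these data known. The table held 44 of the 45 (Ctso had no row) among its 32623 genes, and all 44 had enough counts to be tested, with 14499 genes tested in all. RNA of rat liver tissue (Rattus norvegicus) was sequenced in 6 libraries. The HCC group (3 libraries, replicates 1 to 3) came from untreated control animals of a study of hepatocellular carcinoma, the main liver cancer. The TAE group (3 libraries, replicates 1 to 3) came from animals given transarterial embolization, a treatment that plugs the arteries supplying a liver tumour. For the way the tumours were made, the part of the liver that was taken, the strain, the age and the time after embolization, nothing is given in the sources used here. Total counts were 13448286 to 16604067 per library. No label ties a replicate to an animal of its own, and p-values thus cover only the spread among these libraries, which may be technical.

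Lysosomes are acidic organelles in which proteins, glycans and lipids taken up by endocytosis, phagocytosis or autophagy are broken down. A proton pump, the V-ATPase, acidifies them, heavily glycosylated membrane proteins line them, and the transcription factors TFEB and TFE3 can raise the expression of many lysosomal genes together. Every liver cell has lysosomes, and macrophages, which include the resident Kupffer cells of the liver, are especially rich in them.

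The TAE libraries were unlike each other, which touches each result. Across all tested genes, libraries were compared on log2 CPM, each count relative to its library total scaled by a TMM factor. TAE replicate 2 correlated at 0.967 to 0.969 with the HCC libraries and at 0.969 with TAE replicate 1. It correlated at 0.935 with TAE replicate 3, and TAE replicates 1 and 3 correlated at 0.962. The HCC libraries correlated with each other at 0.984 to 0.991. Hepatocyte markers were also uneven, with Alb, which encodes albumin, at 12096, 14853 and 15868 FPKM in HCC replicates 1 to 3 and at 6948, 5318 and 15304 FPKM in TAE replicates 1 to 3. FPKM is the fragment count scaled to exon length and library total. In tissue RNA, more cells of a type and more RNA per cell cannot be told apart.

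Most lysosomal genes had higher levels in the TAE than in the HCC libraries, with the largest fitted changes in the macrophage membrane protein Cd68, the proteases Ctss and Ctsd and the sulfatase Galns. In edgeR's quasi-likelihood test, 5 of the 44 members (11.4%) rose at an adjusted p of 0.05, where 2.70% of all tested genes did. These were Ctsd, Ctss, Galns, Cd68 and Laptm5, with log2 changes of 1.27 to 1.70. At an unadjusted p under 0.05, 29 members were higher, where 15.9% of all tested genes were. None fell (0 of 44, and 0 also at an unadjusted p of 0.05 and in DESeq2), where 0.310% of all tested genes fell by edgeR. The median log2 change was 0.54 over the 44 members and -0.03 over all tested genes, and 40 members had a positive and 4 a negative log2 change. The 3 TAE libraries all lay above the 3 HCC libraries for 28 members (63.6%) on TMM-scaled CPM, where 18.6% of all tested genes did. The same held for 33 members (75.0%) on FPKM against 21.9% of all tested genes. For 0 members did all TAE libraries lie below all HCC libraries on TMM-scaled CPM, against 13.4% of tested genes.

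**Figure D1:**
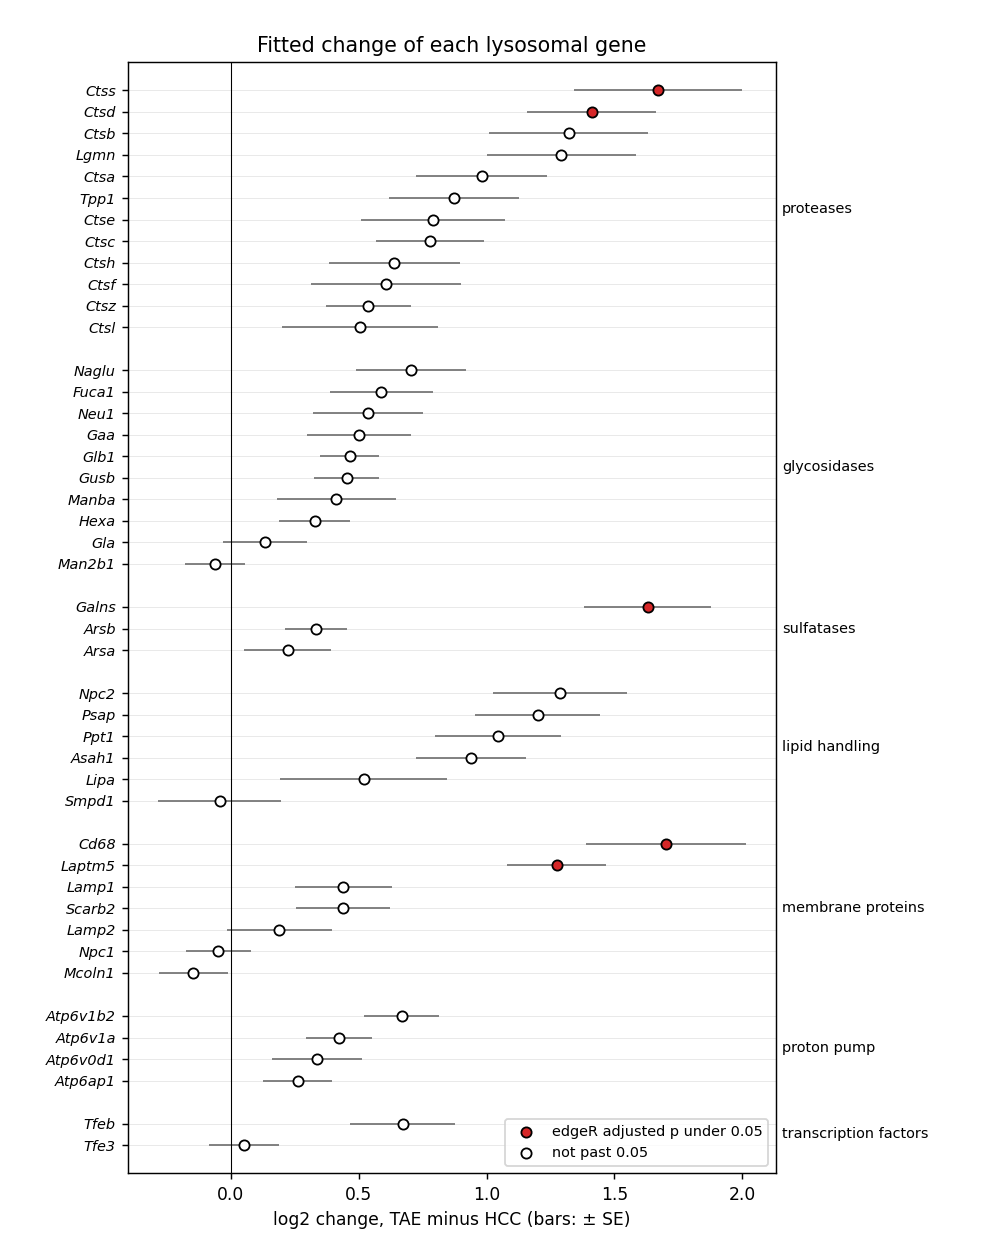
Fitted log2 change (TAE minus HCC) of the 44 lysosomal genes, ordered by role, with bars of ± 1 SE from edgeR. Filled points mark the 5 genes past an adjusted p of 0.05, and 40 of the 44 points lie right of 0.

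The number of members that passed depended on single libraries and on the test. Without TAE replicate 2, 28 members rose (63.6%, against 14.6% of all tested genes), and without TAE replicate 3, 12 rose (27.3%, against 4.82%). Without HCC replicate 1, 2 or 3 or TAE replicate 1, edgeR called 0 members and 0, 1, 0 and 1 of all tested genes. In these 4 fits 20, 21, 23 and 23 members were higher at an unadjusted p under 0.05, against 11.3%, 12.5%, 11.2% and 11.6% of all tested genes. DESeq2 without the same libraries called 11, 12, 9 and 11 members higher, against 4.99%, 5.84%, 4.13% and 4.34% of genes with an adjusted p. With all 6 libraries, DESeq2 called 18 members (40.9%, against 8.81% of genes with an adjusted p), all of them higher. The 5 members named above were among those called by DESeq2 on all 6 libraries and after leaving out each library in turn.

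**Figure D2:**
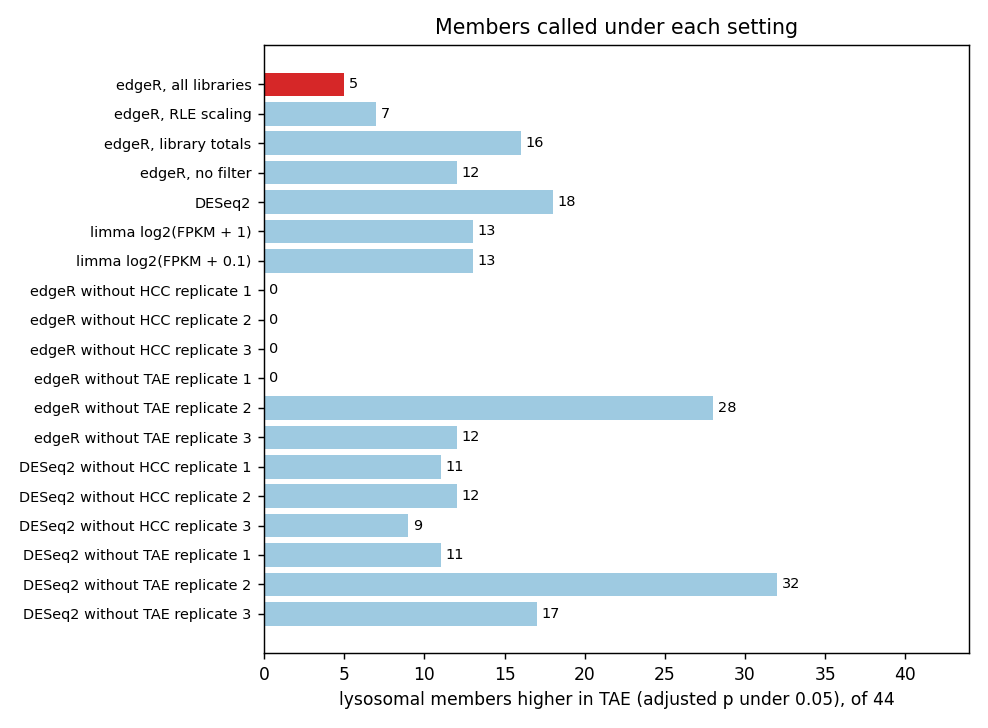
Bars give the number of the 44 lysosomal members that were higher in TAE at an adjusted p under 0.05, for each test, scaling and left-out library. The count is 5 with edgeR on all libraries, 28 without TAE replicate 2 and 0 in 4 of the edgeR fits that leave out a library.

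TAE replicate 3 stood highest and TAE replicate 2 lowest for most members. On FPKM, TAE replicate 3 was the highest TAE library for 31 members, replicate 2 for 7 and replicate 1 for 6. TAE replicate 2 was the lowest TAE library for 32 members, yet it still exceeded all HCC libraries for 35 members, as against 40 for each of TAE replicates 1 and 3. On TMM-scaled CPM, the scale of the test, TAE replicate 2 was the lowest TAE library for 37 members, above all HCC libraries for 29 and below all of them for 9. Positions of single libraries given below for a gene are on FPKM unless stated, and some differ on TMM-scaled CPM. Together the 44 genes took 0.802%, 0.868% and 0.800% of the counts in HCC replicates 1 to 3 and 1.49%, 1.28% and 1.85% in TAE replicates 1 to 3.

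**Figure D3:**
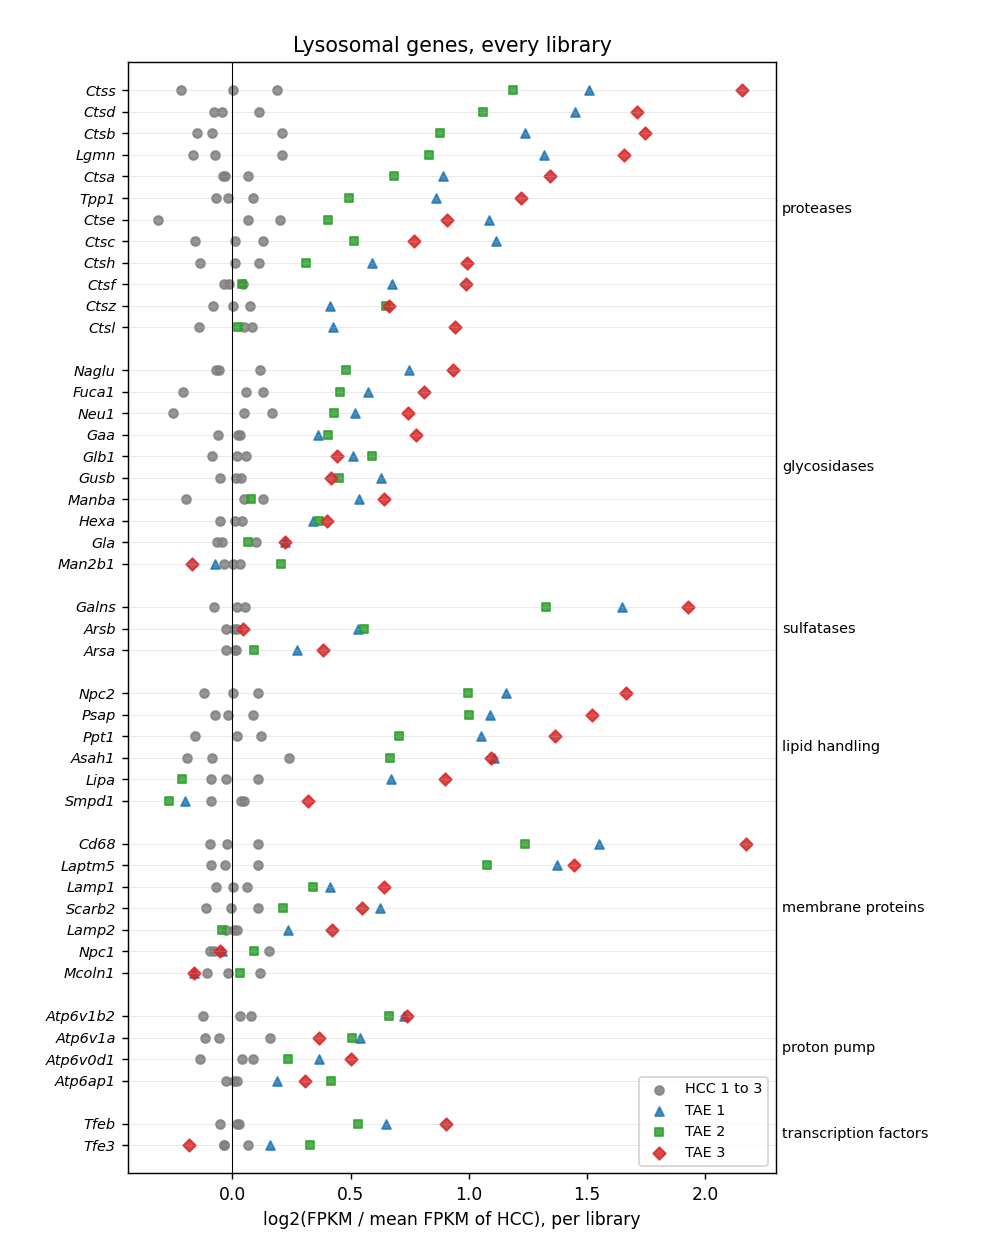
Each point is 1 library's FPKM of a lysosomal gene relative to the HCC mean, on a log2 scale, with HCC in grey and the TAE replicates by symbol and colour. TAE replicate 3 is the highest TAE library for 31 genes and TAE replicate 2 the lowest for 32.

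The proteases comprised 10 cathepsins together with Lgmn and Tpp1. All 12 had positive log2 changes (median 0.83, range 0.50 to 1.67), and in edgeR 2 rose, 0 fell and 10 did not pass. Of the 12, 10 had an unadjusted p under 0.05 in edgeR, and DESeq2 called 8. Ctsd encodes cathepsin D, the main aspartic protease of lysosomes (gene ENSRNOG00000020206, chromosome 1, 215541542 to 215553451). It stood at 187, 214 and 191 FPKM in HCC replicates 1 to 3 and at 539, 411 and 646 FPKM in TAE replicates 1 to 3. The lowest TAE library had nearly double the level of the highest HCC library, and the log2 change was 1.41 ± 0.25 (SE, edgeR adjusted p = 0.0424). Ctss encodes cathepsin S, a cysteine protease of antigen-presenting cells that trims the invariant chain from MHC class II molecules (gene ENSRNOG00000021157, chromosome 2, 197655786 to 197679458). Its FPKM was 127, 144 and 108 in HCC and 359, 287 and 562 in TAE. The groups were far apart, with TAE replicate 3 above the other two, and the log2 change was 1.67 ± 0.33 (SE, edgeR adjusted p = 0.0487). Gene coordinates are printed as deposited, and their build is not settled.

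Ctsb, the cysteine protease cathepsin B, was the most abundant protease of the list. It stood at 376, 482 and 393 FPKM in HCC and at 984, 765 and 1398 FPKM in TAE, so the groups did not overlap, and its log2 change of 1.32 ± 0.31 (SE) did not pass (edgeR adjusted p = 0.0664). Lgmn encodes legumain, the asparaginyl endopeptidase that processes cathepsins. Its FPKM was 168, 204 and 157 in HCC and 439, 314 and 555 in TAE, again without overlap (log2 change 1.29, edgeR adjusted p = 0.0604). Ctsa, a serine carboxypeptidase that also protects neuraminidase and beta-galactosidase, stood at 165 ± 6.84 FPKM in HCC and at 330 ± 79.7 FPKM in TAE (means ± SD of 3 libraries). Tpp1, a tripeptidyl peptidase lost in a childhood neuronal storage disease, stood at 42.7 ± 2.37 and 79.0 ± 19.8 FPKM, and Ctsc, which activates granule serine proteases of leukocytes, at 188 ± 18.7 and 332 ± 70.0 FPKM. Both sets of TAE libraries lay above HCC, and neither gene passed in edgeR, while DESeq2 called both (DESeq2 adjusted p = 0.0265 and 0.0140).

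The remaining cathepsins had log2 changes of 0.50 to 0.79, and none of them passed in edgeR, while DESeq2 called Ctsz (DESeq2 adjusted p = 0.0402). Ctsl, the broad cysteine protease cathepsin L, stood at 319, 364 and 372 FPKM in HCC and at 473, 357 and 675 FPKM in TAE. On FPKM TAE replicate 2 lay within the HCC range, and the log2 change was 0.50 ± 0.30 (SE, edgeR adjusted p = 0.346). Ctsf, a cysteine protease, also had TAE replicate 2 within the HCC range on FPKM. It stood at 19.1, 20.2 and 19.4 FPKM in HCC and at 31.1, 20.1 and 38.8 FPKM in TAE. The groups of Ctsl and Ctsf overlapped on TMM-scaled CPM as well. Ctsz, a carboxypeptidase, stood at 319 ± 17.3 FPKM in HCC and at 477 ± 44.9 FPKM in TAE, and Ctsh, an aminopeptidase, at 135 ± 11.7 and 213 ± 51.2 FPKM. Ctse, an aspartic protease of endosomes, was the rarest protease of the list, at 3.33 ± 0.591 and 5.91 ± 1.36 FPKM. For Ctsz, Ctsh and Ctse the TAE libraries all exceeded HCC on FPKM, but on TMM-scaled CPM the groups of Ctsh and Ctse overlapped.

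Glycosidases remove sugars from glycoproteins and glycolipids. None of the 10 passed in edgeR (0 of 10), with 7 at an unadjusted p under 0.05 and 1, Glb1, called by DESeq2. Their median log2 change was 0.46, ranging from -0.06 to 0.70. Man2b1, the lysosomal alpha-mannosidase, was the most abundant in HCC but not in TAE, where Hexa and Fuca1 had higher means. It stood at 86.1, 82.2 and 84.3 FPKM in HCC and at 80.0, 97.2 and 74.8 FPKM in TAE. On FPKM the TAE libraries lay on both sides of the narrow HCC range (log2 change -0.06 ± 0.12 SE, edgeR adjusted p = 0.760). Hexa, the alpha subunit of beta-hexosaminidase, showed a small difference between groups that were tight on FPKM. It stood at 68.3, 71.3 and 73.0 FPKM in HCC and at 89.9, 91.4 and 93.6 FPKM in TAE. Its edgeR log2 change was 0.33 ± 0.14 (SE, edgeR adjusted p = 0.218), with 0.40 without TAE replicate 2 and 0.23 without TAE replicate 3. Glb1, the beta-galactosidase, stood at 26.2 ± 1.33 and 37.4 ± 1.92 FPKM, and Gusb, the beta-glucuronidase, at 16.8 ± 0.538 and 23.8 ± 1.90 FPKM, with no overlap for either.

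The largest log2 change among glycosidases was 0.70 ± 0.22 (SE) for Naglu, an enzyme of heparan sulfate breakdown, at 7.19 ± 0.532 FPKM in HCC and at 12.0 ± 1.84 FPKM in TAE. Fuca1, the alpha-fucosidase, stood at 56.6 ± 6.83 and 87.0 ± 11.1 FPKM, Neu1, the sialidase, at 8.10 ± 1.18 and 12.0 ± 1.38 FPKM, and Gaa, the acid alpha-glucosidase that degrades glycogen, at 18.8 ± 0.650 and 27.1 ± 4.45 FPKM. The groups did not overlap for these 4 genes. Gla, the alpha-galactosidase, and Manba, the beta-mannosidase, overlapped between groups, at 19.6 ± 1.26 and 22.1 ± 1.37 FPKM for Gla and 10.1 ± 1.16 and 13.7 ± 2.67 FPKM for Manba.

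Of the 3 sulfatases, which cut sulfate groups from glycosaminoglycans and sulfolipids, only Galns passed. Galns encodes the galactosamine-6-sulfatase that acts on keratan and chondroitin sulfate (gene ENSRNOG00000014461, chromosome 19, 55389462 to 55423150). It was scarce, at 1.98, 1.85 and 2.03 FPKM in HCC and 6.12, 4.90 and 7.43 FPKM in TAE. All TAE libraries had more than double the HCC level, and the log2 change was 1.63 ± 0.25 (SE, edgeR adjusted p = 0.0388). Arsa, the arylsulfatase that acts on sulfatide, stood at 12.1, 12.0 and 11.7 FPKM in HCC and at 14.5, 12.7 and 15.6 FPKM in TAE (log2 change 0.22, edgeR adjusted p = 0.445). Arsb, which acts on dermatan sulfate, stood at 9.31, 9.0 and 9.22 FPKM in HCC and at 13.3, 13.5 and 9.48 FPKM in TAE. Here TAE replicate 3 was the library near HCC, unlike for most members.

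**Figure D4:**
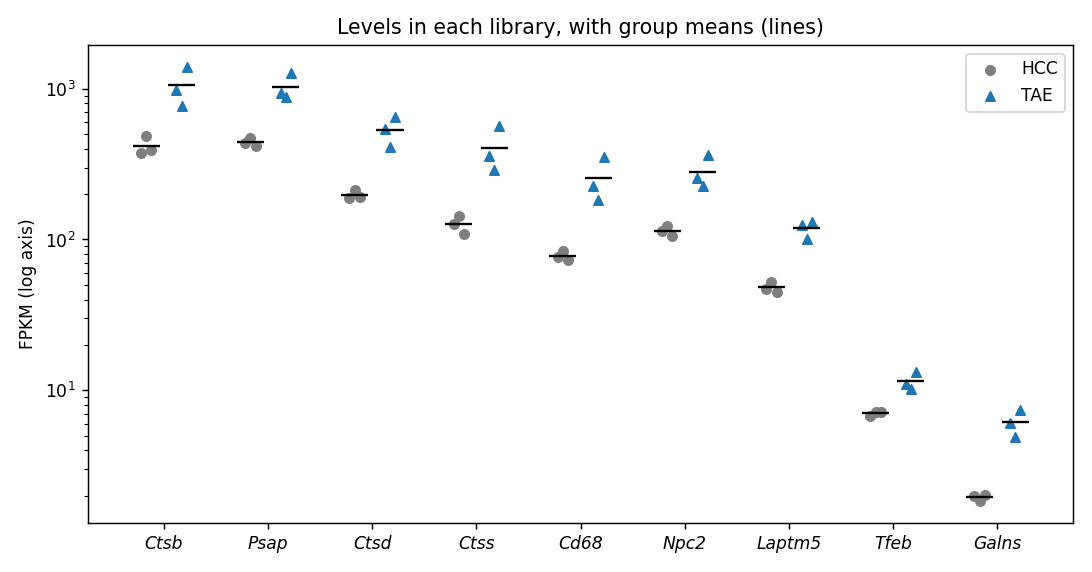
FPKM on a log axis in each HCC (circles) and TAE (triangles) library for the 5 members that passed and for Ctsb, Psap, Npc2 and Tfeb, with group means as lines. For each of these 9 genes the 3 TAE libraries lie above the 3 HCC libraries.

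Among the 6 lipid-handling genes the median log2 change was 0.99, and none passed in edgeR (0 of 6, with 4 at an unadjusted p under 0.05 and 4 called by DESeq2). Psap encodes prosaposin, the precursor of the saposins that present sphingolipids to their hydrolases, and was the most abundant of them. It stood at 436, 469 and 419 FPKM in HCC and at 938, 883 and 1264 FPKM in TAE, a log2 change of 1.20 ± 0.25 (SE, edgeR adjusted p = 0.0504). Npc2, a soluble carrier that moves cholesterol within the lysosome, stood at 115, 123 and 105 FPKM in HCC and at 255, 228 and 363 FPKM in TAE (log2 change 1.29 ± 0.26 SE, edgeR adjusted p = 0.0504). The lowest TAE library had 1.88 times the FPKM of the highest HCC library for Psap and 1.85 times for Npc2. With the RLE (median-of-ratios) scaling in edgeR, Psap and Npc2 passed as well, which made 7 members.

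Npc1 is the membrane partner to which Npc2 hands cholesterol. Its FPKM was 24.3, 20.4 and 20.7 in HCC and 21.2, 23.3 and 21.0 in TAE. On this scale all TAE libraries lay inside the HCC range (log2 change -0.05 ± 0.13 SE, edgeR adjusted p = 0.830). Ppt1, which removes palmitate from proteins, stood at 53.2 ± 5.17 FPKM in HCC and at 111 ± 25.1 FPKM in TAE, and Asah1, the acid ceramidase, at 32.9 ± 5.30 and 64.5 ± 10.5 FPKM. Neither overlapped between groups, and neither passed (edgeR adjusted p = 0.0665 and 0.0636). Lipa, the acid lipase that hydrolyses cholesteryl esters and triglycerides, stood at 54.2, 47.3 and 49.5 FPKM in HCC and at 80.1, 43.5 and 94.0 FPKM in TAE, so TAE replicate 2 lay below all HCC libraries. Smpd1, the acid sphingomyelinase, stood at 43.0 ± 2.29 and 42.2 ± 9.86 FPKM, with TAE replicates 1 and 2 below and replicate 3 above all HCC libraries.

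The 7 membrane proteins differed in the size of their log2 changes. Cd68, a mucin-like glycoprotein of macrophage lysosomes (gene ENSRNOG00000037563, chromosome 10, 56268720 to 56270640), stood at 76.6, 83.8 and 73.0 FPKM in HCC and at 228, 183 and 351 FPKM in TAE. Its log2 change of 1.70 ± 0.31 (SE, edgeR adjusted p = 0.0439) was the largest of the 44, and TAE replicate 3 lay well above the other two TAE libraries. Laptm5, a lysosomal membrane protein of blood cells (gene ENSRNOG00000011054, chromosome 5, 149047681 to 149069719), stood at 47.1, 51.9 and 45.2 FPKM in HCC and at 124, 102 and 131 FPKM in TAE. The TAE libraries were closer together for this gene, with a log2 change of 1.27 ± 0.19 (SE, edgeR adjusted p = 0.0388).

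The broadly expressed membrane glycoproteins had smaller log2 changes that did not pass. Lamp1, the most abundant membrane protein of the list in HCC and second to Cd68 in TAE, stood at 145, 140 and 133 FPKM in HCC and at 186, 176 and 217 FPKM in TAE (log2 change 0.44 ± 0.19 SE, edgeR adjusted p = 0.223). Lamp2, needed for fusion of lysosomes with autophagosomes, stood at 136, 138 and 133 FPKM in HCC and at 160, 132 and 182 FPKM in TAE, with TAE replicate 2 just below HCC (log2 change 0.19, edgeR adjusted p = 0.583). Scarb2, the receptor that carries glucocerebrosidase to lysosomes, stood at 32.1 ± 2.49 and 44.7 ± 6.44 FPKM. Mcoln1, a calcium channel of the lysosomal membrane, stood at 14.1, 15.1 and 16.5 FPKM in HCC and at 13.6, 15.6 and 13.6 FPKM in TAE, and its log2 change of -0.15 ± 0.14 (SE, edgeR adjusted p = 0.519) was the lowest of the 44.

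Subunits of the proton pump had positive log2 changes of 0.26 to 0.67, and none passed in edgeR (0 of 4, with 2 at an unadjusted p under 0.05 and 2 called by DESeq2). Atp6v1b2, a B subunit of the ATP-hydrolysing domain, stood at 68.4, 70.6 and 61.4 FPKM in HCC and at 110, 106 and 111 FPKM in TAE. On FPKM its TAE libraries were nearly equal and clear of HCC. The edgeR log2 change was 0.67 ± 0.15 (SE, edgeR adjusted p = 0.0582). It was 0.76 without TAE replicate 2 and 0.58 without TAE replicate 3, so the near equality depends on the scale. Atp6v1a, the catalytic A subunit, stood at 35.0 ± 3.56 and 48.5 ± 3.02 FPKM. Atp6v0d1, in the membrane domain, stood at 43.0 ± 3.45 and 55.7 ± 5.15 FPKM, and the accessory subunit Atp6ap1 at 78.0 ± 1.29 and 96.6 ± 7.63 FPKM.

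The transcription factors Tfeb and Tfe3 were both modest in level. Tfeb stood at 6.79, 7.19 and 7.14 FPKM in HCC and at 11.0, 10.2 and 13.2 FPKM in TAE, with all TAE libraries above HCC, and its log2 change of 0.67 ± 0.20 (SE) did not pass (edgeR adjusted p = 0.119). Tfe3 stood at 11.5, 11.5 and 12.4 FPKM in HCC and at 13.2, 14.8 and 10.4 FPKM in TAE. On FPKM TAE replicate 3 thus lay below HCC and TAE replicates 1 and 2 above. The groups also overlapped on TMM-scaled CPM, the scale of the test (log2 change 0.05 ± 0.14 SE, edgeR adjusted p = 0.838). TFEB protein is controlled largely by its location in the cell, which RNA levels do not show.

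The promoters of these genes were searched for the letters that TFEB family proteins bind. The search used sequence alone, so its shares describe the gene list and not the difference between TAE and HCC. RefSeq promoter windows (build GRCr8, 250 bases before to 50 after each gene start) matched 36 of the 44 members. The E-box CACGTG, which reads the same on both strands, occurred in 7 of 36 windows (19.4%) and in 6.42% of all 33469 windows. The longer TCACGTGA, which contains it, occurred in 4 of 36 (11.1%) and in 0.777% of all windows. GAGGAAGT, a sequence preferred by the myeloid factor PU.1, was searched on both strands as well and occurred in 4 of 36 (11.1%, in Ctsc, Ctse, Ctss and Gla) against 2.42% of all windows. A match is a description of the letters and not of binding. The 250 bases before the start are shown for Lamp1 (chr16:83075064-83075313, minus strand) and Ctsd (chr1:206968822-206969071, minus strand), the members with several E-boxes there. The last 100 bases before the start are shown for Atp6v0d1 (chr19:50357249-50357348, minus strand), Gaa (chr10:105028255-105028354, plus strand) and Mcoln1 (chr12:6358158-6358257, plus strand) as further E-box carriers. Ctss (chr2:185775296-185775395, plus strand) is shown as a member that rose with the PU.1 letters. Cd68 (chr10:54882442-54882541, minus strand) is shown as one that rose without an exact match to the E-box or the PU.1 letters. Variants of these letters were not searched. Sequences run 5′ to 3′ on the gene's strand, and capitals mark CACGTG or, in Ctss, the PU.1 letters on the other strand.
Lamp1: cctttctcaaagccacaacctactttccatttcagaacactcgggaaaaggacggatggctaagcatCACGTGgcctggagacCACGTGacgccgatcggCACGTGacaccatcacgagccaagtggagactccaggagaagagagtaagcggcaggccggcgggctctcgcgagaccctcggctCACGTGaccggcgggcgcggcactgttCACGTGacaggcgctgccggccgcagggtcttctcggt
Ctsd: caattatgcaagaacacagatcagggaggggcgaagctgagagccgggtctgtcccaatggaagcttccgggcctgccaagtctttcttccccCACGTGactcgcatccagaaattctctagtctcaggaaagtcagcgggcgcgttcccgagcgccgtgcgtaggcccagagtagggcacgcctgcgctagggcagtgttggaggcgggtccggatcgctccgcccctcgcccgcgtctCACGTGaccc
Atp6v0d1: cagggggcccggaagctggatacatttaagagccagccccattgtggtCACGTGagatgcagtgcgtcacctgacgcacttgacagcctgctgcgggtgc
Gaa: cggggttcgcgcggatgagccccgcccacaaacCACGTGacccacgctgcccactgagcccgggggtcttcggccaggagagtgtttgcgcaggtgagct
Mcoln1: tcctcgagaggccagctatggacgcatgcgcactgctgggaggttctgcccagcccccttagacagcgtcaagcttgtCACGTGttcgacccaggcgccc
Ctss: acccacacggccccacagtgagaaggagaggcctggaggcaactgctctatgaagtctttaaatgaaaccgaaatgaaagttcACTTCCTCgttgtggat
Cd68: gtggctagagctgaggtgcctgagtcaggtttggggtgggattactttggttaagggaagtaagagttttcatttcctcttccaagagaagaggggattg

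The E-box carriers had log2 changes of -0.15 to 1.41. Lamp1 had 5 E-boxes in its window, 2 of them in the longer form, and a log2 change of 0.44, whereas Mcoln1 had 2 and the lowest log2 change of all members. Ctsd had 2, the nearer starting 10 bases before the gene start, and was the only E-box carrier that rose. The 7 carriers (these 3 with Atp6v0d1, Ctsf, Gaa and Glb1) had a median log2 change of 0.46 and the 29 matched members without an E-box one of 0.54, a difference given without a test.

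Other genes of the lysosome were examined from lists chosen with earlier results of these data known. Over all tested genes, 2.70% rose in edgeR, 15.9% were higher at an unadjusted p under 0.05 and 14.6% rose without TAE replicate 2. DESeq2 called 8.81% of genes with an adjusted p higher. No test compared the counts below with these shares. Of 24 further hydrolases and cofactors tested, 2 rose, 0 fell and 22 did not pass, with a median log2 change of 0.73. DESeq2 called 14 of the 24 higher, and 17 were higher at an unadjusted p under 0.05 in edgeR. Ifi30, a thiol reductase of antigen-processing compartments, rose from 89.0 ± 7.06 to 226 ± 30.2 FPKM (log2 change 1.31), and Cstb, the cathepsin inhibitor cystatin B, rose from 96.3 ± 9.44 to 216 ± 22.1 FPKM (log2 change 1.13). None of 18 further membrane proteins passed in edgeR (0 of 18, 8 at an unadjusted p under 0.05, 3 by DESeq2), with a median of 0.38, and the most abundant of them, the tetraspanin Cd63, stood at 268 ± 22.7 and 368 ± 23.2 FPKM. All 14 further V-ATPase subunits tested lay above 0 on the log2 scale (median 0.40). Of these Tcirg1, the a3 subunit found in osteoclasts and macrophages, rose from 24.6 ± 1.57 to 62.9 ± 16.4 FPKM (log2 change 1.34), and 13 did not pass (7 of the 14 at an unadjusted p under 0.05, 2 by DESeq2). Of 19 regulators and sorting proteins, Mitf, a relative of TFEB, rose from 2.45 ± 0.298 to 6.34 ± 1.5 FPKM (log2 change 1.35), and 18 did not pass (median 0.49, 12 of the 19 at an unadjusted p under 0.05, 7 by DESeq2). Without TAE replicate 2, 19, 9, 6 and 11 genes of these 4 lists rose in the order named, and 1 of the last list, Rptor, a subunit of the mTORC1 kinase complex named after its values were seen, fell.

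Autophagy genes, whose products deliver cell contents to lysosomes, were centred near 0. Their median log2 change was 0.04 over 18 genes, 12 positive and 6 negative, and none passed in edgeR (0 of 18, 4 at an unadjusted p under 0.05, 1 by DESeq2, 4 in edgeR without TAE replicate 2). The shares of all genes that were higher were 15.9% at an unadjusted p, 8.81% by DESeq2 and 14.6% without TAE replicate 2. Gabarap, which joins the autophagosome membrane and had the highest mean over all 6 libraries, stood at 220, 246 and 237 FPKM in HCC and at 340, 311 and 404 FPKM in TAE (log2 change 0.56, edgeR adjusted p = 0.162). Sqstm1, the cargo receptor p62, named after its values were seen, lay the other way at 225, 227 and 262 FPKM in HCC and 150, 212 and 192 FPKM in TAE, with all TAE libraries below HCC (log2 change -0.42 ± 0.18 SE, edgeR adjusted p = 0.231).

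Of 16 macrophage and monocyte markers, 7 rose, 0 fell and 9 did not pass (12 at an unadjusted p under 0.05, 10 by DESeq2), and none was at 0. Among all genes, 2.70% rose in edgeR, 15.9% were higher at an unadjusted p and 8.81% were higher by DESeq2. Their summed level was 1296 to 1589 FPKM in HCC and 3667 to 4704 FPKM in TAE, most of it from Lyz2, the lysozyme of myeloid cells, at 801 ± 124 FPKM in HCC and at 3226 ± 388 FPKM in TAE. Relative to the HCC mean, in log2 units, the median macrophage marker was 1.12, 0.59 and 1.47 in TAE replicates 1, 2 and 3, and the median lysosomal member 0.52, 0.25 and 0.91. The same order of the TAE libraries, with replicate 3 highest and replicate 2 lowest, was seen in the medians of the neutrophil (1.38, 0.41 and 1.70), dendritic cell and MHC class II (0.70, 0.67 and 1.56), endothelial (0.68, 0.090 and 0.85) and hepatocyte markers (-0.74, -1.62 and 0.25). Fibroblast and matrix genes (1.94, 0.69 and 1.23) and cholangiocyte markers (1.40, 0.39 and 0.71) had replicate 1 highest instead. For T, NK and B cell markers (-0.29, 0.29 and 1.54) replicate 1 was lowest. These medians are on TMM-scaled CPM, with TMM factors of 1.05, 1.13 and 0.893 for TAE replicates 1 to 3. Such factors lower every gene in replicate 2 relative to replicate 3. Of the 16 markers, 13 had a positive and 3 a negative log2 change. Cd163, Clec4f, Marco and Vsig4, markers of resident Kupffer cells, were not among the 7 that rose. Of these, Clec4f and Marco were named after their values were seen, and they do not stand for Cd163, Vsig4 or the rest of the list. For both, TAE replicates 1 and 2 lay below and replicate 3 above all HCC libraries on FPKM. Clec4f stood at 88.0, 63.4 and 68.9 FPKM in HCC and 42.2, 35.9 and 89.8 FPKM in TAE, and Marco at 49.9, 31.9 and 34.5 FPKM in HCC and 13.7, 12.6 and 80.5 FPKM in TAE. The part of macrophage content in the lysosomal changes was not tested.

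Markers of other cell types were counted in the same way. Beside these counts stand the shares of all genes that were higher. They were 2.70% in edgeR, 15.9% at an unadjusted p, 8.81% by DESeq2 and 14.6% in edgeR without TAE replicate 2. In the dendritic cell and MHC class II list 3 of 12 genes rose, with 8 at an unadjusted p under 0.05 and 8 called by DESeq2 (summed level 1357 to 1566 FPKM in HCC and 2567 to 4271 FPKM in TAE, led by Cd74). Of 12 fibroblast and matrix genes, edgeR called 1 higher and DESeq2 11, and all 12 were higher at an unadjusted p under 0.05, with a median log2 change of 1.36 (533 to 866 and 1339 to 3412 FPKM, led by Col3a1). Without TAE replicate 2 edgeR called 10 of them. Neutrophil markers had a summed level of 64.2 to 98.2 FPKM in HCC and 137 to 248 FPKM in TAE, led by Ncf4 in HCC and S100a9 in TAE, with 2 of 6 tested genes rising (Ncf1 and Ncf4, shared with macrophages), 5 at an unadjusted p under 0.05, 3 called by DESeq2 and Mpo, Ltf, Camp and Fpr1 too low to test. None of 15 hepatocyte markers passed in edgeR or DESeq2 (0 of 15, 3 lower at an unadjusted p under 0.05 in edgeR), and 10 were called lower in edgeR without TAE replicate 3. The summed level of the hepatocyte markers was 28855 to 35205 FPKM in HCC and 17474, 12761 and 41081 FPKM in TAE replicates 1 to 3. Among T, NK and B cell markers 0 of 12 passed in edgeR (3 at an unadjusted p under 0.05) and 3 in DESeq2 (summed level 141 to 199 FPKM in HCC and 269 to 443 FPKM in TAE, led by Cd8a). Of 8 cholangiocyte markers 2 rose, with 5 at an unadjusted p under 0.05 and 4 called by DESeq2 (85.6 to 126 and 218 to 374 FPKM, led by Anxa4 in HCC and in TAE by Spp1, which macrophages also express), and of 10 endothelial markers 0 passed in edgeR (5 at an unadjusted p under 0.05) and 3 in DESeq2 (83.6 to 96.3 and 92.5 to 166 FPKM, led by Eng). The part of each in the lysosomal changes was not tested.

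**Figure D5:**
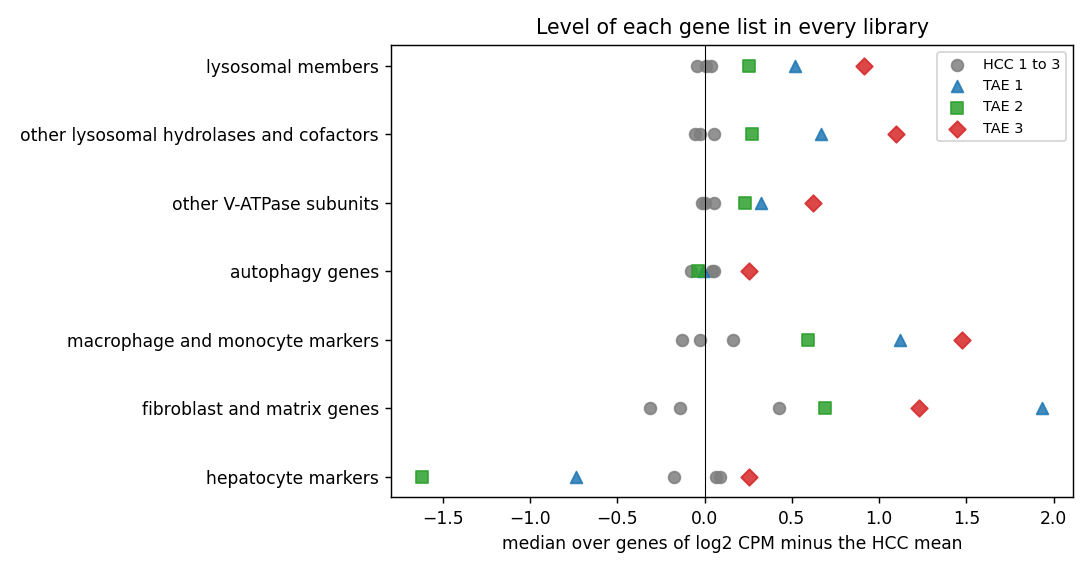
For each gene list, the median over its genes of TMM-scaled log2 CPM minus the HCC mean is shown in every library. HCC is in grey and the TAE replicates are by symbol. The lysosomal members stand at 0.52, 0.25 and 0.91 in TAE replicates 1, 2 and 3, the macrophage markers at 1.12, 0.59 and 1.47, and the autophagy genes at -0.01, -0.04 and 0.25.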

How the data were processed

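The authors deposited 1 table that holds, per the file headers, raw read counts and FPKM for each Ensembl gene in every library. The deposited FPKM equal the count scaled to exonic size and library total (recomputed here, 100% of values lay within 0.006). The build mRatBN7.2 is named in the submitters' processing notes, but the largest end on chromosome 1 is 282724300, beyond that chromosome, so the build of its coordinates is not settled. For the aligner, counter and use of strand, nothing is given in the sources used here, so close paralogs and overlapping genes are uncertain.

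Counts were tested with edgeR 4.0.16 (R 4.3.3; TMM, filterByExpr, quasi-likelihood, two-sided, no block) over 14499 genes with Benjamini-Hochberg adjustment at 0.05. SEs are the absolute log2 change divided by the square root of F. The scripts were tested on simulated data, in which edgeR recovered 49.3% of 2-fold and 100% of 4-fold changes. A member that did not pass may thus still differ. The simulation gave every gene the same spread and did not copy the differences among the TAE libraries. DESeq2 1.42.0, limma 3.58.1 on log2(FPKM + 1), other scalings, no filter, a replicate block and leaving out each library were alternatives. DESeq2 without each library was chosen after seeing the data. Members and lists were chosen with earlier results of these data known. Of 197 entries in 13 lists, 191 matched a gene, 1 of them by an older symbol. All members are named; from the pathway lists up to 4 genes that passed or else the most abundant, and from the cell type lists the most abundant.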

Additional observations from a re-analysis of the deposited data

How the results depend on the processing

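The count of members higher in TAE, 5 with edgeR, was 16 with library totals only, 12 without a count filter, 18 with DESeq2 and 13 with limma on either log2(FPKM + 1) or log2(FPKM + 0.1), and all 5 members were called in each of these. Without HCC replicates 1 to 3 and TAE replicates 1 to 3 in turn, edgeR called 0, 0, 0, 0, 28 and 12 members and DESeq2 11, 12, 9, 11, 32 and 17. The count of all genes called, 437, became 1036, 829, 1664, 701 and 709 under the same settings and, without single libraries, 0 to 3569 in edgeR and 852, 992, 696, 756, 4147 and 2105 in DESeq2. With the replicate number as a block, edgeR called 0 members and 0 genes in all, with 25 members higher at an unadjusted p under 0.05. Same-numbered libraries did not deviate together (correlations of 0.10, -0.209 and 0.0335 for numbers 1 to 3), so the numbers are not shown to pair the samples. Members with all TAE libraries below HCC were 0, and without single libraries 0 to 2 in edgeR and 0 to 3 in DESeq2. The median log2 change of the members stayed between 0.38 (DESeq2 without TAE replicate 3) and 0.74 (edgeR without TAE replicate 2). No called member changed sign. Uncalled Npc1 turned to 0.00046 with library totals and to 0.0030 and 0.0032 with limma, and ranged from -0.10 to 0.020 without single libraries, as did Smpd1 from -0.35 to 0.13 and Lamp2 from -0.012 to 0.37. The causes were not tested.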

Other observations

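The deposited table also annotates genes with the KEGG lysosome pathway, which was looked at after the values of the members were seen. It held 145 genes, 40 of them members, and 86 of the other 105 had enough counts to be tested. Of these 86, 4 rose (4.65%) and 0 fell in edgeR, and 43 had all TAE libraries above all HCC libraries on TMM-scaled CPM. Their median log2 change was 0.36. The 4 that rose were Tcirg1, Napsa, an aspartic protease related to cathepsin D, Ap1s2, a subunit of the adaptor that sorts cargo from the Golgi to endosomes, and Ctla2a, a relative of cathepsin propeptides. Napsa stood at 16.5, 16.1 and 14.9 FPKM in HCC and at 27.8, 29.7 and 28.9 FPKM in TAE, with TAE replicate 2 the highest on FPKM. This order depends on the scale, as its edgeR log2 change was 0.88 without TAE replicate 2 and 0.74 without TAE replicate 3. Ap1s2 stood at 19.3, 13.8 and 12.9 FPKM in HCC and at 56.0, 37.9 and 33.4 FPKM in TAE, with replicate 1 the highest. By the GO lysosome annotation of the deposited genes, 179 genes outside the members were tested. Of these, 11 rose (6.15%, against 2.70% of all tested genes) and 0 fell in edgeR, with a median log2 change of 0.26. On TMM-scaled CPM, 71 (39.7%) had all TAE libraries above HCC and 16 had all below. The shares over all tested genes were 18.6% and 13.4%.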
